A study of Homo sapiens with 6 samples.

Results

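ZFP36, ZFP36L1 and ZFP36L2 are the 3 human genes of one small family of mRNA decay factors, and their transcripts were followed in BL2, a cell line established from a human Burkitt lymphoma. The family was read at every probe set that the platform's annotation gives to 1 of these genes alone, which were 9 of the 54613 probe sets compared: 1 for ZFP36, 4 for ZFP36L1 and 4 for ZFP36L2. No probe set named a member together with another gene. The study electroporated BL2 cells with a pool of 4 siRNAs against LEF1 (3 arrays) or with scrambled siRNA (3 arrays), and each of its 3 labelled batches held 1 array of each kind. LEF1 encodes a transcription factor through which beta-catenin acts on Wnt target genes. All 6 cultures shared the line, the medium and the electroporation. The labels give no time between electroporation and harvest, and all arrays come from 1 cell line, which limits what they represent.

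The members were chosen by gene family, selected on LEF1 siRNA differences and batch levels of these same arrays that were already known. The values of its members are therefore a description, and no test of them is given.

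The proteins of this family bind AU-rich elements in mRNA tails through a tandem pair of zinc fingers and recruit the CCR4-NOT complex, which removes the poly(A) tail so that decapping enzymes, the XRN1 nuclease and the exosome can degrade the message. ZFP36, also called tristetraprolin, is an immediate early gene best known for limiting TNF mRNA in mouse macrophages. ZFP36L1 and ZFP36L2 act redundantly in mouse lymphocyte development, where they hold back cell cycle mRNAs in B cell precursors and Notch1 mRNA in developing T cells.

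Every level is a log2 expression value as deposited, on which 1 unit is a doubling. A difference is always LEF1 siRNA minus scrambled siRNA, and errors are SDs over the 3 arrays of a group. Levels of different probe sets are not set against each other, since probe sets differ in how well they bind. In bulk RNA of this kind, fewer cells with a transcript and less of it per cell cannot be told apart.

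The label check held: LEF1 at its brightest probe set averaged 8.32 ± 0.30 with LEF1 siRNA and 11.04 ± 0.43 with scrambled siRNA, a difference of -2.71 (limma adjusted p = 0.0213 without batch in the fit). At 210948_s_at LEF1 differed by -1.84 (limma adjusted p = 0.00418 in the same fit). At 221557_s_at it differed by only -0.295, with 81.5% of the scrambled siRNA signal left, and did not pass (0.284). All 6 measured B cell markers and all 6 germinal centre and Burkitt markers lay far above the median level of 6.91, the lowest being MYBL1 at 9.09. All 5 measured monocyte markers lay below that median. Of 7 T and NK cell markers 2 lay above it, the highest of them CD3D at 7.09. Of 7 fibroblast and epithelial markers 4 did, with COL1A1 at 8.04 and the rest at or below 7.03. Array medians ran from 6.89 to 6.96. A sign of RNA quality moved with the treatment: the actin 3′ minus 5′ control signal was 0.18, 0.30 and 0.22 with LEF1 siRNA in batches 1, 2 and 3, against 0.07, -0.03 and 0.10 with scrambled siRNA. The same measure for GAPDH averaged 0.0662 and 0.0659. The poly-A spike-in controls averaged 7.98 with LEF1 siRNA and 7.86 with scrambled siRNA. Their difference was 0.13, 0.08 and 0.15 in batches 1, 2 and 3. What part these signals have in any difference below was not tested.

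ZFP36 lies on chromosome 19 (39406847 to 39409407, forward strand), ZFP36L1 on chromosome 14 (68787655 to 68796243, reverse strand) and ZFP36L2 on chromosome 2 (43222402 to 43226606), in RefSeq genes of GRCh38.p14. The 250 bases before the transcription starts of ZFP36 and ZFP36L1 are shown, from the RefSeq promoters of GRCh38.p14. The promoters used here held no entry for ZFP36L2. Whether these bases have a part in any profile below was not tested. Capitals mark matches on either strand to any of 4 motifs: TGACGTCA (a cAMP response element), CTTTGAT (a TCF/LEF motif), TGANTCA (an AP-1 site) and GGGCGG (a GC box).
ZFP36, chr19:39406597-39406846, forward strand: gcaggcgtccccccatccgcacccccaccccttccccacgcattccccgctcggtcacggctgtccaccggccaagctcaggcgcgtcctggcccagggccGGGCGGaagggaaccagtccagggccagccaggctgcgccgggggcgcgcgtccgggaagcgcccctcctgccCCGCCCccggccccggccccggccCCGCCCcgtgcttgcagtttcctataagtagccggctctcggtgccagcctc
ZFP36L1, chr14:68793417-68793666, reverse strand: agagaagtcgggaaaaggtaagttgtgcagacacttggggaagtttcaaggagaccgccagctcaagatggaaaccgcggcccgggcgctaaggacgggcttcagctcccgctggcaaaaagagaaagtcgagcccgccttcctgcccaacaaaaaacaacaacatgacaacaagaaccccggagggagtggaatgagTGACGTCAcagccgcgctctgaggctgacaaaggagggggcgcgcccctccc
The ZFP36 window held 3 GC boxes and no other match. The ZFP36L1 window held 1 cAMP response element. A second ZFP36L1 start, with the window chr14:68796244-68796493, had no match to any of the 4. Of 35116 promoters of this length in the table, 42.6% held the GC box, 1.65% the cAMP response element, 6.57% the AP-1 letters and 2.26% the TCF/LEF letters. A match is letters in a window and does not show that a factor binds there.

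ZFP36L1 was higher with LEF1 siRNA in every batch at both of its bright probe sets. At 211962_s_at its level was 11.62, 10.22 and 10.15 with LEF1 siRNA in batches 1, 2 and 3, against 10.75, 9.36 and 9.49 with scrambled siRNA. The 2 arrays of batch 1 were the highest of the 6, so that the scrambled siRNA array of batch 1 stood above the LEF1 siRNA arrays of batches 2 and 3 and the groups overlapped. The means were 10.66 ± 0.83 and 9.87 ± 0.77, which is a difference of 0.80 or 1.74-fold. Within batches the difference was 0.87, 0.86 and 0.66, with an SD of 0.12, so it varied far less between batches than the level itself did.

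The second bright ZFP36L1 probe set, 211965_at, read 9.76, 8.53 and 7.99 with LEF1 siRNA and 9.01, 8.16 and 7.31 with scrambled siRNA. Here the 3 batches stood apart from one another in both groups, with batch 1 highest and batch 3 lowest. The within-batch differences were 0.75, 0.37 and 0.68, with a mean of 0.60 or 1.52-fold. Over the 6 arrays both bright probe sets of ZFP36L1 correlated at r = 0.91, as points that share 3 batches and 1 RNA per array.

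The remaining ZFP36L1 probe sets were dim and showed no common direction. At 213277_at the level was 6.49, 6.48 and 6.46 with LEF1 siRNA and 6.58, 6.39 and 6.40 with scrambled siRNA. At 213284_at it was 6.66, 6.60 and 6.59 with LEF1 siRNA and 6.80, 6.74 and 6.46 with scrambled siRNA. Both lay below the median of all probe sets, where values hold mostly background, and their differences were 0.02 and -0.05. The difference at 213277_at turned to -0.10 when the arrays were scaled to the poly-A spike-in controls.

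**Figure D1:**
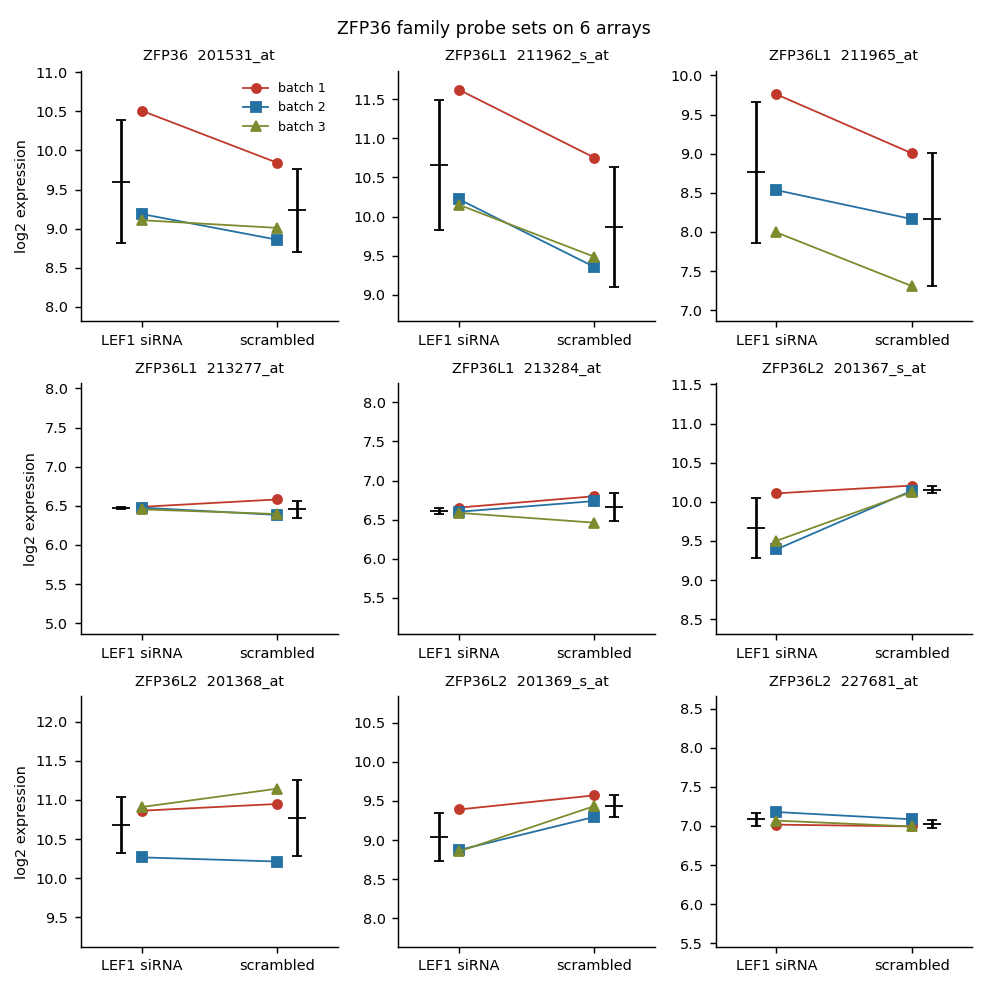
Level of each of the 9 ZFP36 family probe sets (log2 expression, y axis, each panel spanning the same range around its own mean) in LEF1 siRNA and scrambled siRNA arrays. Lines join the 2 arrays of a batch, and black bars are the mean and SD of 3 arrays. Batch 1 lies above batches 2 and 3 in both groups for ZFP36 and for the bright ZFP36L1 probe sets, and all 3 lines there descend from LEF1 siRNA to scrambled siRNA.

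ZFP36 itself, read by 201531_at, was also higher with LEF1 siRNA in all 3 batches, by amounts that differed widely. Its level was 10.51, 9.19 and 9.11 with LEF1 siRNA, against 9.84, 8.86 and 9.01 with scrambled siRNA. The groups overlapped, with both arrays of batch 1 above all others. The within-batch differences of 0.66, 0.33 and 0.10 had a mean of 0.36, which is 1.29-fold, and an SD of 0.28. In batch 3 the 2 arrays were nearly alike. Without the LEF1 siRNA array of batch 1, whose scrambled partner then stays in, the difference of means turned to -0.090, and without the scrambled siRNA array of batch 1 it was 0.67.

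ZFP36L2 ran the other way at 2 of its 3 bright probe sets, and it did so mainly in batches 2 and 3. At 201367_s_at the level was 10.11, 9.39 and 9.50 with LEF1 siRNA, against 10.21, 10.14 and 10.12 with scrambled siRNA. The scrambled siRNA arrays were nearly equal to one another (mean 10.16 ± 0.04). All 3 LEF1 siRNA arrays lay below them (mean 9.67 ± 0.39), although the one of batch 1 did so by only 0.015. This was the only one of the 9 probe sets whose groups did not overlap, and 12.5% of all probe sets had groups that did not overlap. The within-batch differences were -0.10, -0.75 and -0.62, with a mean of -0.49 that left 71.2% of the scrambled siRNA signal.

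A second ZFP36L2 probe set, 201369_s_at, gave a like picture. It read 9.39, 8.87 and 8.86 with LEF1 siRNA and 9.57, 9.30 and 9.43 with scrambled siRNA. The LEF1 siRNA array of batch 1 again stayed close to the scrambled siRNA arrays, and the groups overlapped there. The differences were -0.18, -0.42 and -0.58 in batches 1, 2 and 3, with a mean of -0.39. These 2 probe sets correlated at r = 0.97 over the 6 arrays.

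The brightest ZFP36L2 probe set did not share this pattern. At 201368_at the level was 10.86, 10.27 and 10.91 with LEF1 siRNA, against 10.95, 10.21 and 11.14 with scrambled siRNA. Batch 2 was the low one here in both groups, and the treatment differences of -0.09, 0.05 and -0.23 had no common sign. Its mean difference of -0.09 stood 0.40 above that of 201367_s_at, and by batch the gap was 0.01, 0.80 and 0.39. The correlation between these 2 probe sets of the same gene was r = 0.32. The dim probe set 227681_at read 7.02, 7.18 and 7.07 with LEF1 siRNA and 6.99, 7.08 and 6.99 with scrambled siRNA, a difference of 0.06 that turned to -0.06 with poly-A spike-in scaling. ZFP36L2 thus had no single answer across its probe sets, and which part of the transcript each of them reads was not examined.

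Counted over the family, 4 probe sets were higher with LEF1 siRNA in 3 of 3 batches, 2 were lower in 3 of 3 and 3 were mixed. Among all probe sets 22.1% were higher and 14.4% lower in 3 of 3 batches. Since this contrast was known when the family was selected, nothing is read from these counts.

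**Figure D2:**
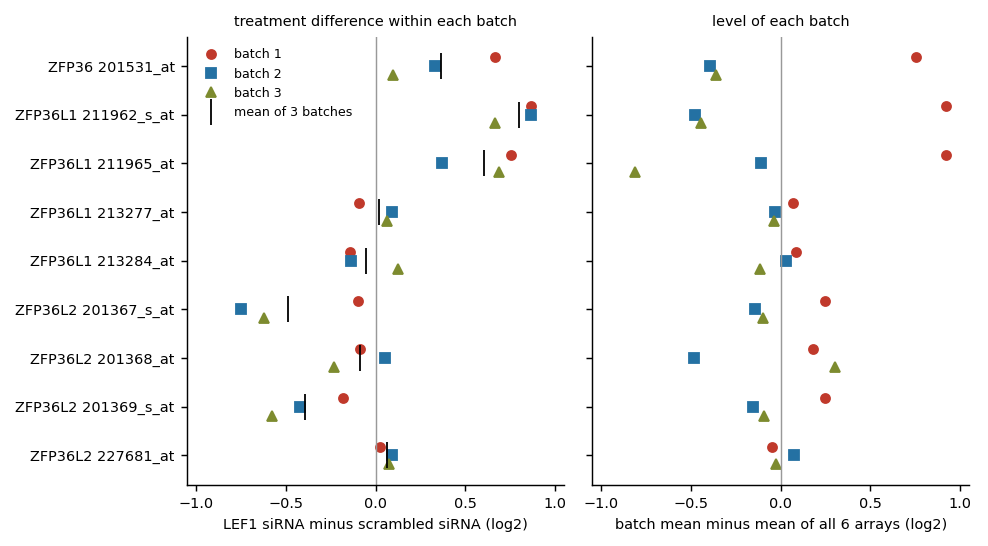
Left, LEF1 siRNA minus scrambled siRNA (log2) within each batch for the 9 probe sets, with a black bar at the mean of 3 batches. Right, the mean of each batch's 2 arrays minus the mean of all 6 arrays (log2). For ZFP36 and bright ZFP36L1 probe sets the batch 1 level stands 0.76 to 0.92 above the mean of all arrays.

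The levels of ZFP36, of both bright ZFP36L1 probe sets and of ZFP36L2 at 201368_at moved more between batches than with the treatment. For ZFP36 the mean of the 2 arrays of batch 1 was 10.18, against 9.02 in batch 2 and 9.06 in batch 3, so batch 1 stood 1.13 above the mean of the others, or 2.20-fold. For ZFP36L1 at 211962_s_at the batch means were 11.19, 9.79 and 9.82, and batch 1 stood 1.38 or 2.61-fold above the others. At 211965_at the batch means were 9.38, 8.35 and 7.65. Among all probe sets, the median of batch 1 minus the others was 0.00, in values whose array medians were already close to one another.

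The span between the highest and the lowest batch mean was 1.15 for ZFP36, 1.40 and 1.73 for the bright ZFP36L1 probe sets and 0.79 for 201368_at of ZFP36L2. These spans were wider than those of 99.7% or more of all probe sets. The median span was 0.12 over all probe sets and 0.17 over those above the median level. Batch levels of these arrays were known when the family was selected, so nothing is read from this rank. They were 3.17, 1.75, 2.88 and 8.85 times the size of the treatment difference of the same probe set. The 2 other bright probe sets of ZFP36L2 spanned 0.39 and 0.40 between batches, about the size of their treatment differences. Of the 7 family probe sets above the median level, 6 had a batch span wider than the treatment difference, as did 77.3% of all probe sets above that level.

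Split into parts, the variation of 211962_s_at over the 6 arrays was 72.5% between batches, 27.1% between treatments and 0.39% neither. For ZFP36 the parts were 86.0%, 9.91% and 4.05%. At 201367_s_at of ZFP36L2 they were 27.7%, 54.4% and 17.9%, so here the treatment had the larger part and the unexplained rest was also larger, which is the difference in batch 1 against batches 2 and 3. At 201368_at of the same gene they were 95.7%, 1.58% and 2.74%.

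Leaving out 1 array breaks the pair of a batch, so that the difference of means then also holds the batch shift. Leaving out 1 array at a time moved the ZFP36L1 difference at 211962_s_at between 0.32 (without the LEF1 siRNA array of batch 1) and 1.24 (without the scrambled siRNA array of batch 1), and the sign held throughout. At 211965_at the range was 0.10 to 1.02. Leaving out whole batches instead keeps the pairs, and each within-batch value is given above.

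**Figure D3:**
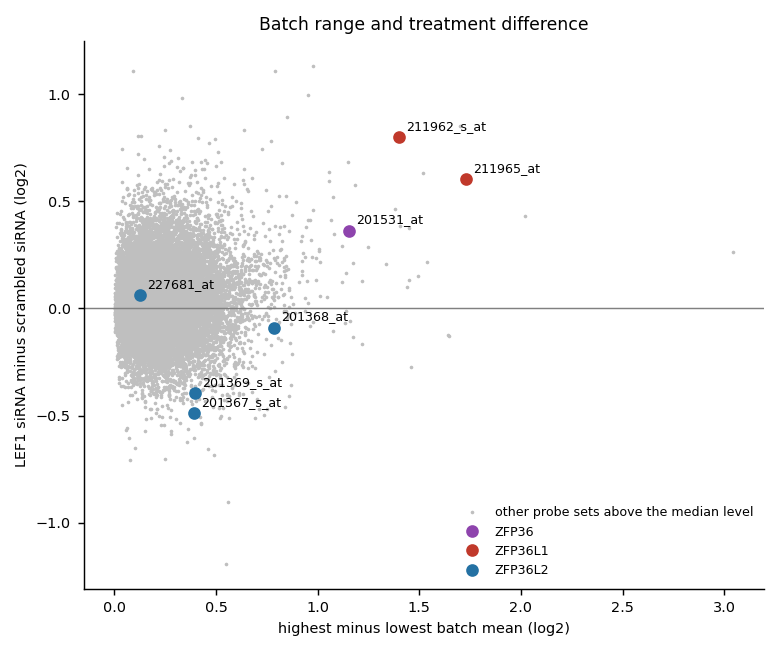
Each point is a probe set above the median level. The x axis is the span between the highest and lowest batch mean (log2) and the y axis LEF1 siRNA minus scrambled siRNA (log2). Grey points are other genes, with LEF1 left out, and coloured points the 7 family probe sets above the median. ZFP36 and the bright ZFP36L1 probe sets lie right of a span of 1.15, where few probe sets do. Batch levels were known when the family was selected.

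The genes whose profile over the 6 arrays was closest to each member were sought among genes above the median level with at least 0.5 of the member's range over the arrays. For ZFP36 these were NFKBIE, an inhibitor of NF-kappaB, EGR1, an immediate early transcription factor, and DUSP2, a nuclear MAP kinase phosphatase, at r = 0.993, 0.991 and 0.990 among 312 candidates. EGR1 read 9.08, 6.89 and 6.96 with LEF1 siRNA and 8.35, 6.50 and 6.80 with scrambled siRNA, so its batch 1 shift of 1.93 was larger than that of ZFP36. In batches 2 and 3 EGR1 lay near or below the median level of 6.91, close to background, which limits how the size of its shift can be read. DUSP2 had a batch 1 shift of 1.03 and NFKBIE one of 1.04. All 3 were higher in batch 1 in both groups.

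For ZFP36L1 the closest genes were CD83, a surface marker of activated B cells, at r = 0.988, ARRDC3, an arrestin-like adapter, at 0.978, and PTGER4, a prostaglandin E2 receptor, at 0.978, among 63 candidates. CD83 read 12.84, 11.08 and 11.32 with LEF1 siRNA against 11.84, 10.19 and 10.65 with scrambled siRNA, and PTGER4 read 10.01, 8.90 and 9.07 against 9.29, 8.11 and 8.54. Both combined a batch 1 shift, of 1.53 and 1.00, with a treatment difference, of 0.85 and 0.68, as ZFP36L1 did. ARRDC3 read 7.72, 6.91 and 6.81 with LEF1 siRNA against 7.42, 6.38 and 6.63 with scrambled siRNA. In batches 2 and 3 ARRDC3 thus lay near or below the median level of 6.91, close to background, which limits how its likeness can be read. ZFP36 and ZFP36L1 correlated with each other at r = 0.96.

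For ZFP36L2 at 201368_at the closest genes were ADM, which encodes adrenomedullin, STMN1, which encodes the tubulin-binding protein stathmin, and the chemokine receptor gene CXCR4, at r = 0.994, 0.991 and 0.988 among 2990 candidates. In all 3 batch 2 was the low batch. ADM read 11.83, 10.89 and 11.92 with LEF1 siRNA and 12.04, 10.84 and 12.15 with scrambled siRNA. ZFP36L2 at this probe set correlated with ZFP36 at r = 0.33 and with ZFP36L1 at r = 0.27. These correlations cover 6 arrays that share 3 batches, and the highest among many candidates are high by selection.

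**Figure D4:**
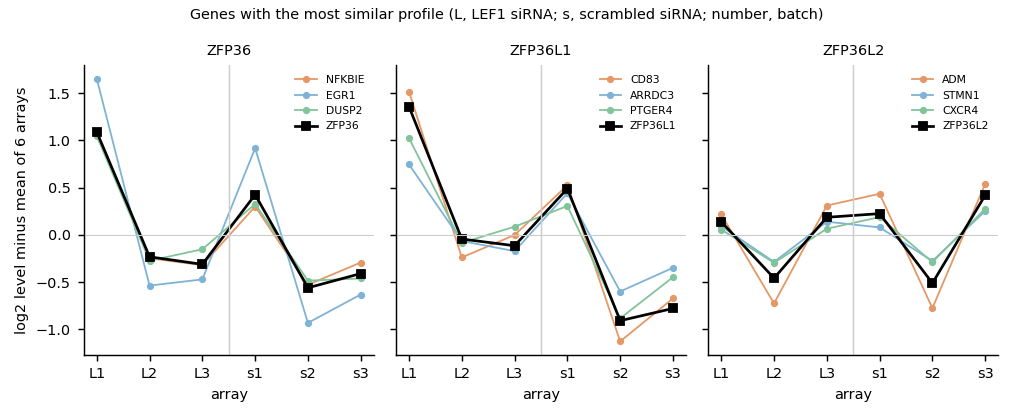
Level on each array minus the mean of the 6 arrays (log2) for the brightest probe set of each family member (black) and the 3 genes with the highest correlation to it. Arrays run from LEF1 siRNA (L) to scrambled siRNA (s), with the batch number. ZFP36 and ZFP36L1 peak on both arrays of batch 1, and ZFP36L2 dips on both arrays of batch 2.

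The rest of the decay machinery and reported target mRNAs were read from 7 lists with 136 different genes, of which 125 were measured, each at its brightest probe set. In the limma fit without batch 0 of the 125 passed, and 18 had an unadjusted p under 0.05. Of all 19775 genes 0.0253% passed in that fit, and 1956 had an unadjusted p under 0.05. With batch as a block 14 of the 125 rose and 9 fell, and 6.73% of all genes rose and 1.70% fell. The median difference of the 125 was -0.01 and that of all genes 0.02. Of the 125 genes 11 lay at or below the median level. In a fit with block of only the 27347 probe sets above it, 2571 rose and 894 fell. Of the 114 list genes in that fit, each at its brightest probe set, 15 rose and 10 fell. The former counts are of probe sets, which can be several per gene, and the latter of genes. The lists were chosen with earlier results of these data known. Their counts and p-values are therefore a description, and no excess over all genes is read from them. Adjusted p-values below are limma's with batch as block unless named otherwise, and none of the genes below passed without the block. Without batch 2 the 23 calls became 11, 8 higher and 3 lower, and with poly-A spike-in scaling, where the median of all probe sets is -0.11, they became 7 higher and 35 lower. Over all 54613 probe sets the 3328 calls with the block became 1407 without batch 2. With poly-A spike-in scaling they became 971 higher and 7826 lower. The counts of each list with that scaling, given below, stand beside this shift of all probe sets.

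Among deadenylation genes 5 of 18 rose and 0 fell. TOB1, an antiproliferative protein that brings the CCR4-NOT deadenylase to mRNA, read 10.47, 10.56 and 10.56 with LEF1 siRNA and 9.80, 9.84 and 10.17 with scrambled siRNA. The groups did not overlap, as in 12.5% of all probe sets, and naming genes by smallest p favours such separation. TOB1 rose by 0.59 (adjusted p = 0.000244). Its relative TOB2 rose by 0.57 (adjusted p = 0.000113) and BTG1, of the same protein family, by 0.58 (adjusted p = 0.000126). The deadenylase gene PARN rose by 0.31 (adjusted p = 0.00467), and the fifth was CNOT4, by 0.26 (0.0117). CNOT4 did not pass without batch 2 (0.0577) or with poly-A spike-in scaling (0.110), and its 4 further probe sets differed by -0.01 to 0.12 and did not pass. CNOT1, the scaffold of CCR4-NOT, differed by 0.04 and its catalytic subunit gene CNOT7 by 0.09 at their brightest probe sets, and neither passed. Of the 5 further CNOT7 probe sets the dim 233019_at rose by 0.25 (0.0182), and the other 4 differed by -0.07 to 0.17 and did not pass. The further probe sets of TOB2 differed by 0.06 and 0.01 and did not pass. Of the 2 further ones of BTG1, 200920_s_at rose by 0.32 (0.00753) and the dim 1559975_at differed by 0.11 (0.381), and that of TOB1 differed by 0.28 (0.0525). With poly-A spike-in scaling 4 of this list rose and 2 fell.

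Of 20 decapping and 5′ to 3′ decay genes 3 rose and 1 fell. DDX6, a helicase that links deadenylation to decapping, rose by 0.29 (adjusted p = 0.00818), the decapping enzyme gene DCP2 by 0.26 (0.0316) and DCP1B, a decapping activator, by 0.26 (0.0129). LSM2, a subunit of the ring that binds deadenylated ends, fell by 0.42 (0.0139), with -0.03, -0.65 and -0.59 by batch. The further DDX6 probe sets differed by -0.03 and 0.04 and did not pass. Of the 3 further DCP2 probe sets 235258_at rose by 0.24 (0.0199), and the others differed by -0.14 and -0.01 and did not pass. XRN1, the 5′ to 3′ exonuclease gene, differed by 0.17 and did not pass. With poly-A spike-in scaling 0 of this list rose and 5 fell. DCP2, DCP1B and LSM2 did not pass without batch 2 (0.315, 0.0802 and 0.140), nor did DCP2, DCP1B and DDX6 with poly-A spike-in scaling (0.151, 0.114 and 0.0645). DCP2 was also lost with trend and robust eBayes (0.0515).

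In the exosome and SKI list 2 of 17 rose and 3 fell. SKIC3, a scaffold of the SKI complex that feeds mRNA into the exosome, read 10.59, 10.54 and 10.57 with LEF1 siRNA, against 10.10, 9.91 and 9.95 with scrambled siRNA. The groups of SKIC3, also named by smallest p, did not overlap, and it rose by 0.58 (adjusted p = 0.000113, and 0.0614 without block). Both further SKIC3 probe sets differed by 0.19 and 0.14 and did not pass. DIS3, a catalytic nuclease of the exosome, rose by 0.35 (0.00599), while the core subunit genes EXOSC2 and EXOSC9 fell by 0.33 and 0.25 (0.00402 and 0.0169), and EXOSC8 fell by 0.24 (0.0414). The 2 other probe sets of EXOSC2 differed by -0.05 each and did not pass. Of the 4 further DIS3 probe sets 234660_s_at rose by 0.30 (0.0108), and the other 3 differed by 0.03 to 0.14 and did not pass. DIS3, EXOSC9 and EXOSC8 did not pass without batch 2 (0.0748, 0.0842 and 0.384), nor did EXOSC8 with trend and robust eBayes (0.0717). With poly-A spike-in scaling 2 rose and 10 fell.

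Of 17 genes of other AU-rich element and stem-loop binding proteins 2 rose and 0 fell. ZC3H12D, a gene of the regnase family of nucleases, had the largest difference of the 125. It read 8.72, 8.64 and 9.0 with LEF1 siRNA and 7.93, 8.02 and 8.20 with scrambled siRNA, and rose by 0.74 (adjusted p = 1.88e-05). TIA1, a translational silencer, rose by 0.30 at its brightest probe set (0.0258). Of its 6 further probe sets 201450_s_at rose by 0.31 (0.00867), and the other 5 differed by -0.11 to 0.17 and did not pass. The call at the brightest one was lost without batch 2 (0.269) and with poly-A spike-in scaling (0.0913). ELAVL1, which stabilises AU-rich mRNAs, differed by -0.12 at its brightest probe set and did not pass. Its other probe sets disagreed, with a rise of 0.23 at 244660_at (0.0369) and differences of -0.21 and 0.01 at the others that did not pass. With poly-A spike-in scaling 1 of this list rose and 4 fell.

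Of 17 genes of kinases, phosphatases and 14-3-3 adapters 1 fell and 0 rose. The one was YWHAH, a 14-3-3 gene, by 0.40 (adjusted p = 0.0108), with -0.11, -0.67 and -0.42 by batch, and without batch 2 it did not pass (0.120). Its dim further probe sets differed by 0.03 and 0.04 and did not pass. MAPKAPK2, the kinase that phosphorylates ZFP36, differed by 0.06 and the phosphatase gene DUSP1 by -0.05, and neither passed. The 2 further MAPKAPK2 probe sets differed by -0.08 and -0.07 and did not pass. The batch 1 level of DUSP1 stood -0.13 from the others at its brightest probe set, and 0.26 and 0.20 above them at 201041_s_at and 201044_x_at. Under poly-A spike-in scaling 0 of this list rose and 3 fell.

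Of 22 measured mRNAs reported as AU-rich element targets 2 rose and 1 fell. MCL1, a survival gene, rose by 0.25 (adjusted p = 0.0345) and NFKBIZ, a nuclear regulator of NF-kappaB, by 0.21 (0.0425). At the other NFKBIZ probe set, 223217_s_at, also bright, the difference was -0.11 and lower in 3 of 3 batches, and it did not pass (0.456). Both were lost with equal array medians (0.0651 and 0.0966), with poly-A spike-in scaling (0.169 and 0.262), with trend and robust eBayes (0.0749 and 0.0988), and without batch 1 (0.198 and 0.146) or 2 (0.155 and 0.0718), and NFKBIZ also without batch 3 (0.133). MCL1 rose at 2 of its 5 further probe sets, by 0.44 and 0.38, and differed by 0.17, 0.19 and 0.09 at the other 3, which did not pass (0.205, 0.0705 and 0.572). VEGFA fell by 0.27 (0.0249), with a batch span of 1.46, and did not pass without batch 2 (0.234). The 3 further VEGFA probe sets differed by -0.18 to -0.09 and did not pass. TNF, the classical target of ZFP36, read 7.09 ± 0.05 with LEF1 siRNA and 7.07 ± 0.13 with scrambled siRNA, close to the median of all probe sets. MYC differed by -0.15 and BCL2 by 0.21, and neither passed. The 3 further BCL2 probe sets differed by -0.11 to 0.02 and did not pass. Of these 22 genes 7 lay at or below the median level. Under poly-A spike-in scaling 0 of this list rose and 5 fell.

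Of 14 targets reported in B cells and lymphocyte precursors 3 fell and 0 rose. CCND3, the cyclin D3 gene, read 10.63, 10.38 and 10.98 with LEF1 siRNA against 11.03, 10.96 and 11.40 with scrambled siRNA, and fell by 0.47 (adjusted p = 0.00052). Its other probe set, near the median level, differed by 0.05 and did not pass. E2F2, an activator of S phase genes, fell by 0.38 (0.00303) and at its other probe sets by 0.54 and 0.29. BACH2, a repressor of plasma cell genes, fell by 0.24 (0.0430), but its other probe set differed by 0.00. CCNE2 differed by 0.12 at its brightest probe set and fell by 0.34 at the other (adjusted p = 0.00477). NOTCH1 differed by 0.18, PRDM1 by 0.05, IRF8 by 0.08, BCL6 by -0.03 and KLF2 by 0.07, and none of them passed at these probe sets, while BCL6 fell by 0.23 at 215990_s_at. CCND3 and E2F2 also passed without each batch in turn, in fits to still fewer arrays. BACH2 did not pass without batch 2 (0.0934) or 3 (0.304), nor with trend and robust eBayes (0.0748). Under poly-A spike-in scaling 0 of this list rose and 6 fell.

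**Figure D5:**
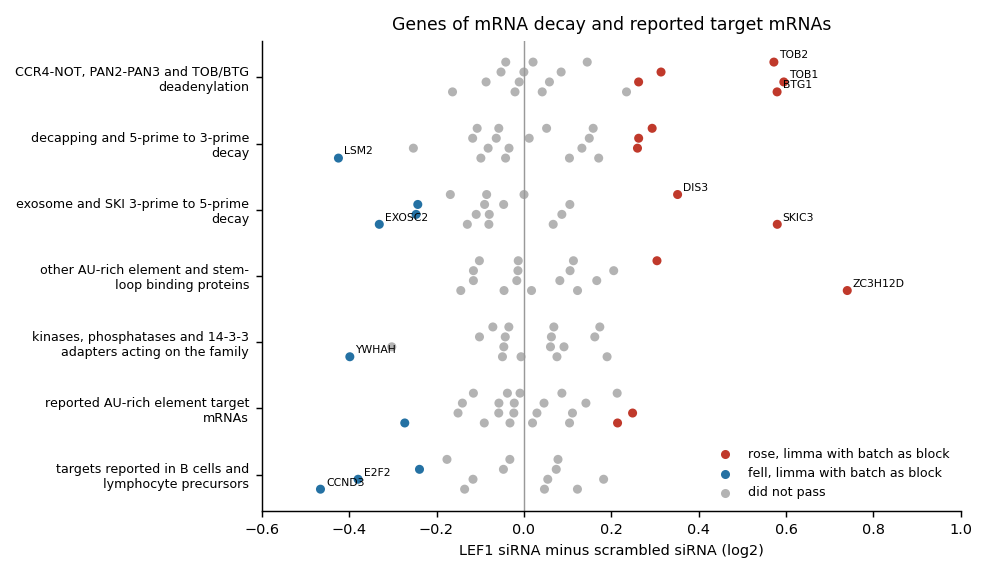
Each point is a gene at its brightest probe set, placed by LEF1 siRNA minus scrambled siRNA (log2) in its list. Red genes rose and blue genes fell in the limma fit with batch as block. The 3 called genes of the deadenylation list named in the plot lie between 0.57 and 0.59, and ZC3H12D lies farthest right at 0.74.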

How the data were processed

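The authors deposited a table of log2 expression values with 54675 probe sets and 6 arrays. Per the labels' protocols, biotinylated cRNA was prepared by 3′ in vitro transcription, so signals come mainly from 3′ ends. Background correction and normalization are not given in the sources used here, and the log2 scale was read from the range of 5.45 to 15.0. The 62 control probe sets were left out of the tests. Names came from the platform annotation, checked against RefSeq of GRCh38.p14 (0 symbols changed). Members and lists were chosen with earlier results of these data known.

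The limma package (version 3.58.1, R 4.3.3, with data.table at version 1.17.8) fitted differences over 54613 probe sets, without block and with batch as block, two-sided, with Benjamini-Hochberg adjustment and a threshold of 0.05. The batch label pairs the arrays: deviations from group means correlated at 0.477, 0.493 and 0.621 within batches. The fits without and with block had 4 and 2 residual degrees of freedom. To these limma added 4.07 and 12 prior degrees of freedom, taken from the variance over all probe sets. The p-values with block thus rest mostly on that shared variance, and less on the spread of a gene's own batch differences. Fits without a batch had fewer residual degrees of freedom still. Whether replicates were separate cultures rests on the series' design text, which calls them biological. Both fits were checked on simulated data. From each list up to 4 passing genes were named by smallest p, besides a set named whatever its values. ZC3H12A and MAPK14 were not analysed here. CNOT4, EXOSC8 and the further probe sets of list genes were named after their values were seen. Alternatives covered the block, 4 scalings, dim probe sets, eBayes settings, the probe set per gene and left-out arrays or batches. Figures used matplotlib 3.10.9, pandas 2.3.3, numpy 2.4.6 and Python 3.11.15.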

Additional observations from a re-analysis of the deposited data

How the results depend on the processing

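The number of probe sets passing without block, 10, became 23 with quantile normalization and also with cyclic loess, 6 with trend and robust eBayes, and 0 to 8 when arrays or batches were left out. With batch as replicate block it was 3328. The share of calls that were higher was 75.2% in that fit, against 66.2% with equal medians, 60.1% with cyclic loess, 56.1% with quantile normalization and 11% with poly-A spike-in scaling. LEF1 kept its difference, between -2.94 and -2.51 with single arrays left out and at -2.63 without batch 1 and -2.83 without batch 2, and lost its call without block when scrambled siRNA array 1 or 3, LEF1 siRNA array 1 or 2, or batch 1 or 2 was left out (limma adjusted p = 0.0771 to 0.404). Of the 125 list genes 0 passed without replicate block, 1 with quantile normalization (ZC3H12D) and 23 with batch as replicate block. Those 23 became 42 with poly-A spike-in scaling and 11 to 27 with a batch left out, and 19 to 29 under the other alternatives with the block. The 23 list genes that passed with batch as block kept their direction at their brightest probe sets under the 4 scalings, the dim filter, the eBayes settings and with each batch left out. They were picked for passing in these same arrays, so a kept direction is no independent support. All 23 lost the call without block, 13 without batch 2, 7 with poly-A spike-in scaling, 5 with trend and robust eBayes, and 2 each with equal array medians, without batch 1 and without batch 3.

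The cause of these changes was not tested. For the family, the ZFP36L1 difference at 211962_s_at was 0.68 with poly-A spike-in scaling, 0.34 as the mean of all 4 probe sets and 0.32 to 1.24 with arrays or batches left out. For ZFP36 the left-out range was -0.090 to 0.67 and for ZFP36L2 at 201368_at -0.37 to 0.12. Combinations of batch block and another setting were chosen after seeing the data. The precision is limited by the number of arrays and, for the dim probe sets, by signal near background.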
